A study of Mus musculus with 2 samples.

Results

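The 9 genes described here belong to the Slc22 family of organic ion transporters and were chosen by name: Slc22a2, Slc22a6, Slc22a7, Slc22a8, Slc22a12, Slc22a13, Slc22a18, Slc22a19 and Slc22a30. All 9 have a row among the 21855 genes of a mouse kidney single-cell RNA matrix, and the matrix lists 14 further Slc22 names. The study has 1 FA library, from a wild type mouse kidney labelled with folic acid (FA) treatment and FA-induced nephropathy, and 1 control library, from a wild type kidney labelled control. Folic acid at high dose is a standard way to injure the mouse renal tubule. The labels give no dose, time after treatment, age, sex or number of animals for either library, and name no transgene or deletion. Barcodes starting FA3 were taken as the FA library and those starting C3 as the control library, the second of which rests on its letter. With 1 library per group there was no replicate check, so no p-value is given, and every interval below is a 95% interval that covers counting error only.

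Slc22 proteins carry small charged molecules across the plasma membrane, and the kidney uses them in proximal tubule cells to clear drugs, toxins and metabolic waste into the urine. Slc22a6 (the organic anion transporter OAT1) and Slc22a8 (OAT3) sit in the basolateral membrane and take organic anions up from the blood in exchange for dicarboxylates. Slc22a2 (the organic cation transporter OCT2), also basolateral, takes up organic cations such as creatinine and metformin, driven by the membrane potential. On the luminal side Slc22a12 (URAT1) exchanges urate for organic anions. The proximal tubule runs through segments S1, S2 and S3, and the segments carry these transporters at different levels. Several Slc22 genes are also known to differ between male and female rodent kidneys.

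Slc22a6 and Slc22a8 are neighbours on mouse chromosome 19 (GRCm38, GENCODE vM21). Slc22a8 covers chr19:8591254-8611835 and Slc22a6 chr19:8618039-8628299, both on the plus strand, with 6203 bases and 0 annotated genes between them. Slc22a12 lies on the minus strand at chr19:6535845-6543032, inside Nrxn2, which is on the opposite strand; whether counting used strand is not given, so reads of these 2 genes may not be told apart. Slc22a18 lies on the plus strand at chr7:143473736-143499334. The 250 bases before the RefSeq start (GRCm38.p6) are shown for Slc22a12 and Slc22a18 because these 2 genes differed from control in opposite directions in FA proximal tubule-like cells. They run 5′ to 3′ on the gene's own strand, for Slc22a12 at chr19:6543071-6543320 (minus) and for Slc22a18 at chr7:143473539-143473788 (plus), and capitals mark the core motif TGTTCT of the androgen receptor where it lies on the other strand, read as AGAACA.
Slc22a12: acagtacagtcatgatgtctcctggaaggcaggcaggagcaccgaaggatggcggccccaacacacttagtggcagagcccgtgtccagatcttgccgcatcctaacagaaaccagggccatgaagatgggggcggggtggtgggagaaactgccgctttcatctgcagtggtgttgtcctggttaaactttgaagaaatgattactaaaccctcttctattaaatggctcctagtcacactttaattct
Slc22a18: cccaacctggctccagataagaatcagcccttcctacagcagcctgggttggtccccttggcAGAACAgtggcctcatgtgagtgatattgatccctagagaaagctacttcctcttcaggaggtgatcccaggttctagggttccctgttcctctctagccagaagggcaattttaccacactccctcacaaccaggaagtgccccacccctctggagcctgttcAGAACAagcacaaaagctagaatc
RefSeq promoters were matched for 8 of the 9 members, Slc22a7 being the one without. TGTTCT, searched on both strands, was in 2 of the 8, those of Slc22a18 and Slc22a19, against 16.1% of 32851 promoters of the same length. In Slc22a18 it stood at -188 to -183 and at -24 to -19, counted from the start, and overlapped no other motif searched. The promoter of Slc22a30, which was also lower in FA proximal tubule-like cells, did not hold TGTTCT. Any link of this motif to the direction of a difference was not tested. The HNF4 sites CAAAGTCCA and CAAAGGTCA were in 0 of the 8, against 0.384% and 0.426% of promoters, and TATAAA was in 0 of the 8, against 12.4%.

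The values are counts of unique molecular identifiers (UMIs), each standing for 1 captured RNA molecule. They were summed over the cells of a class and given as counts per 1000000 UMIs of that class (CPM). After filters, 13502 FA cells with a median of 2932.5 UMIs and 5807 control cells with a median of 4914 UMIs were kept, and 54 barcode sequences occurred in both libraries. Cells were clustered without Slc22 genes and named from markers that hold no Slc22 gene. The libraries also differed in sex-linked RNA, with 104149 Xist UMIs in FA against 15 in control and Y-linked Ddx3y at 0 UMIs in FA against 3928 in control over all barcodes. Sex and treatment therefore cannot be told apart in any difference between the libraries.

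The label of these genes as proximal tubule transporters held for 6 members. Slc22a2, Slc22a6, Slc22a8, Slc22a12, Slc22a18 and Slc22a30 each had their highest CPM in proximal tubule-like cells, among 15 classes of at least 50 cells in FA and among 14 in control. In both libraries that interval did not overlap the interval of the next class by CPM. For Slc22a30 in FA the interval, 8.95 to 19.2 CPM, did overlap those of other classes with 0 UMIs. These were endothelial-like cells (0 to 16.5 CPM) and intercalated-like cells (0 to 12.5 CPM). Proximal tubule-like cells held 7721 of the 7890 control UMIs of Slc22a8, 2743 of 2784 for Slc22a6 and 1678 of 1700 for Slc22a30. In FA they held 655 of 1098 UMIs of Slc22a8, 361 of 862 of Slc22a6 and 837 of 1787 of Slc22a12. Most of the other FA UMIs were in injured and unnamed tubule clusters, described below.

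**Figure D1:**
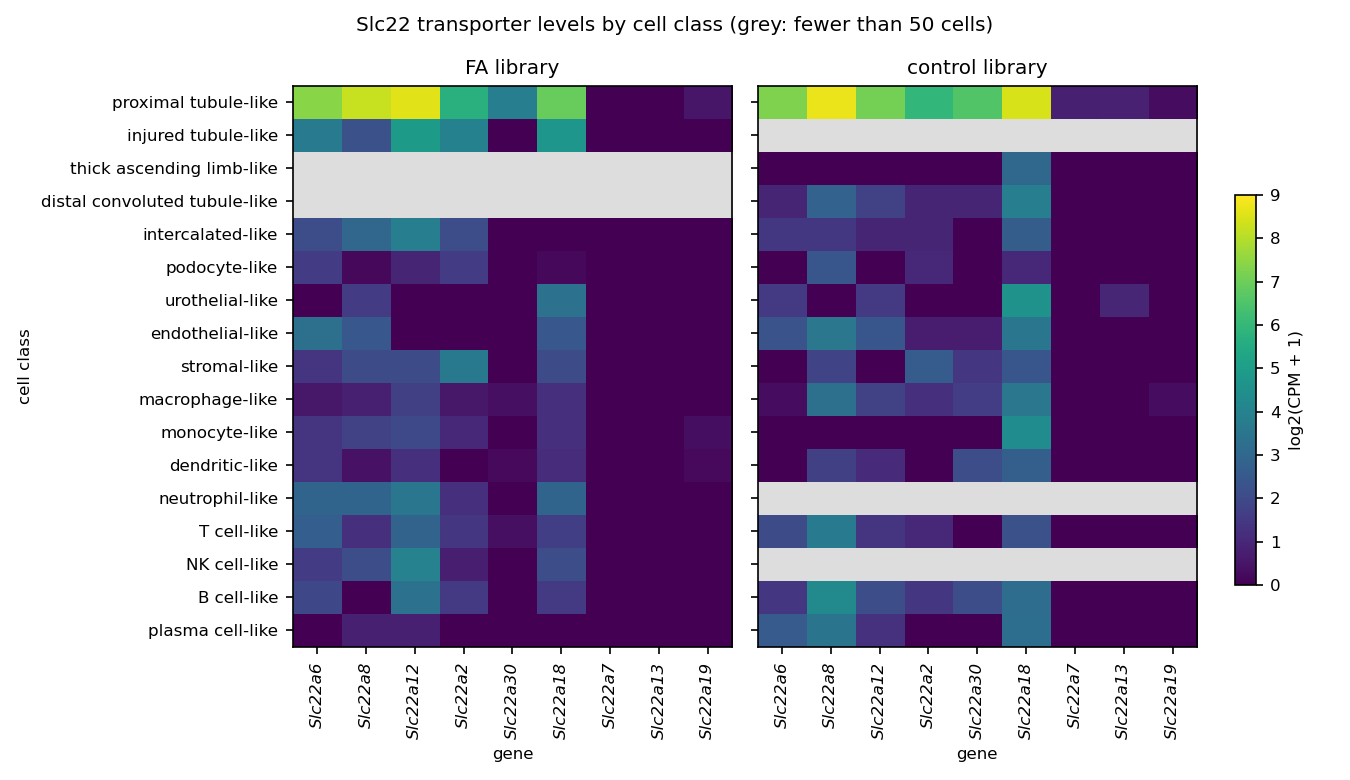
Levels of the 9 genes as log2(CPM + 1) in each cell class (rows), in the FA library (left) and the control library (right). The proximal tubule-like row is the brightest for the 6 genes on the left of each panel, and Slc22a7, Slc22a13 and Slc22a19 are near 0 in every row.

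In blood cell classes, levels were at most a few percent of those in proximal tubule-like cells. Slc22a8 stood at 1.38 CPM in T cell-like, 0.718 CPM in macrophage-like and 0 CPM in B cell-like cells of FA, and at 11.8, 9.11 and 18.5 CPM in the same classes of control. In control, T cell-like cells thus held 2.76% (1.73 to 4.19%) of the proximal tubule-like level, and in FA 0.457% (0.208 to 0.873%). Slc22a6 was at 5.52 CPM in T cell-like cells of FA and at 3.21 CPM in those of control, which is 3.32% and 2.12% of the proximal tubule-like levels. Levels of this size in blood cells were taken as a background, and its source was not tested. The counts were not in 1 ratio, with 36 UMIs of Slc22a6 and 9 of Slc22a8 in T cell-like cells of FA, and 361 and 655 in proximal tubule-like cells of FA. For Slc22a2 in FA the order of classes below the proximal tubule was not resolved, since injured tubule-like cells at 14.3 CPM (10.5 to 19.1), stromal-like cells at 11.5 CPM (4.61 to 23.6) and intercalated-like cells at 3.39 CPM (0.0858 to 18.9) overlapped in turn. Injured tubule-like cells of FA came second, apart from the next class, for Slc22a12, at 29 CPM (23.5 to 35.4) before NK cell-like cells at 14.9 CPM (9.36 to 22.6). The same held for Slc22a18, at 25.6 CPM (20.4 to 31.7) in injured tubule-like cells of FA. Second place was still not resolved for either gene, since classes further down overlapped. Intercalated-like cells of FA held Slc22a12 at 13.6 CPM (3.69 to 34.7), and endothelial-like cells of FA held Slc22a18 at 4.47 CPM (0.113 to 24.9). Slc22a18, an imprinted gene whose transported substrate is not settled, had its second highest level in control in urothelial-like cells, at 23.9 CPM (15.5 to 35.3). That interval overlapped the one of monocyte-like cells of control, at 19.8 CPM (8.55 to 39), so this order was not resolved. In urothelial-like cells of FA Slc22a18 was at 9.15 CPM (4.18 to 17.4).

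Within control, the members divided by cluster, and the clusters were described by segment markers. Of the 4 control clusters named proximal tubule-like, cluster 10 (311 cells) was the one with more summed S3 than S1 marker CPM, 5829.5 against 758.58. Clusters 4, 11 and 12 (1010, 559 and 342 cells) had more S1 than S3, for example 7685 against 828 CPM in cluster 12. The S2 markers summed to 7817 CPM in cluster 10 and to 6089, 12652 and 6828 CPM in clusters 4, 11 and 12. The S2 marker Cyp2e1 was at 1226 CPM in cluster 10 and at 81.8, 13.5 and 91.9 CPM in the others. Another S2 marker, Adra1a, was at 11.7 CPM (31 UMIs) in cluster 10, near clusters 11 and 12. These stood at 15.3 CPM (49 UMIs) and 13.8 CPM (28 UMIs), and cluster 4 at 81.4 CPM. The terms S1-marked and S3-marked compare the S1 and S3 lists, and S2 was not set apart. Slc22a6 was concentrated in cluster 10, at 852 CPM (817 to 888), against 37.5, 5.63 and 38.8 CPM in clusters 4, 11 and 12. Slc22a12 stood at 626 CPM (596 to 657) in cluster 10 and at 63.4, 27.5 and 63.9 CPM in the other three. Slc22a2 followed the same order, with 253 CPM (234 to 273) in cluster 10 and 32.8, 5.95 and 40.8 CPM in clusters 4, 11 and 12. Slc22a30, a mouse gene of the organic anion transporter group, reached 327 CPM (305 to 349) in cluster 10, against 70.9, 9.08 and 27 CPM. For these 4 genes cluster 10 was apart from every other control cluster by more than counting error.

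Slc22a8 and Slc22a18 were spread over more of these clusters instead. Slc22a8 stood at 779 CPM (746 to 814) in cluster 10, and still at 423 CPM in cluster 4 and 489 CPM in cluster 12. Slc22a18 was highest in cluster 12, at 542 CPM (511 to 575), followed by cluster 10 at 435 CPM (410 to 461) and cluster 4 at 368 CPM (356 to 380). Cluster 11 was low for every one of the 6 genes and had the fewest UMIs per cell of the 4, with a median of 3715, and a median mitochondrial share of 1.08%, against 18 to 29.3% in the other three. The 3 sparsely counted members also lay in cluster 10: 12 of the 13 control proximal tubule-like UMIs of Slc22a7, 13 of 14 of Slc22a13 and 4 of 4 of Slc22a19.

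**Figure D2:**
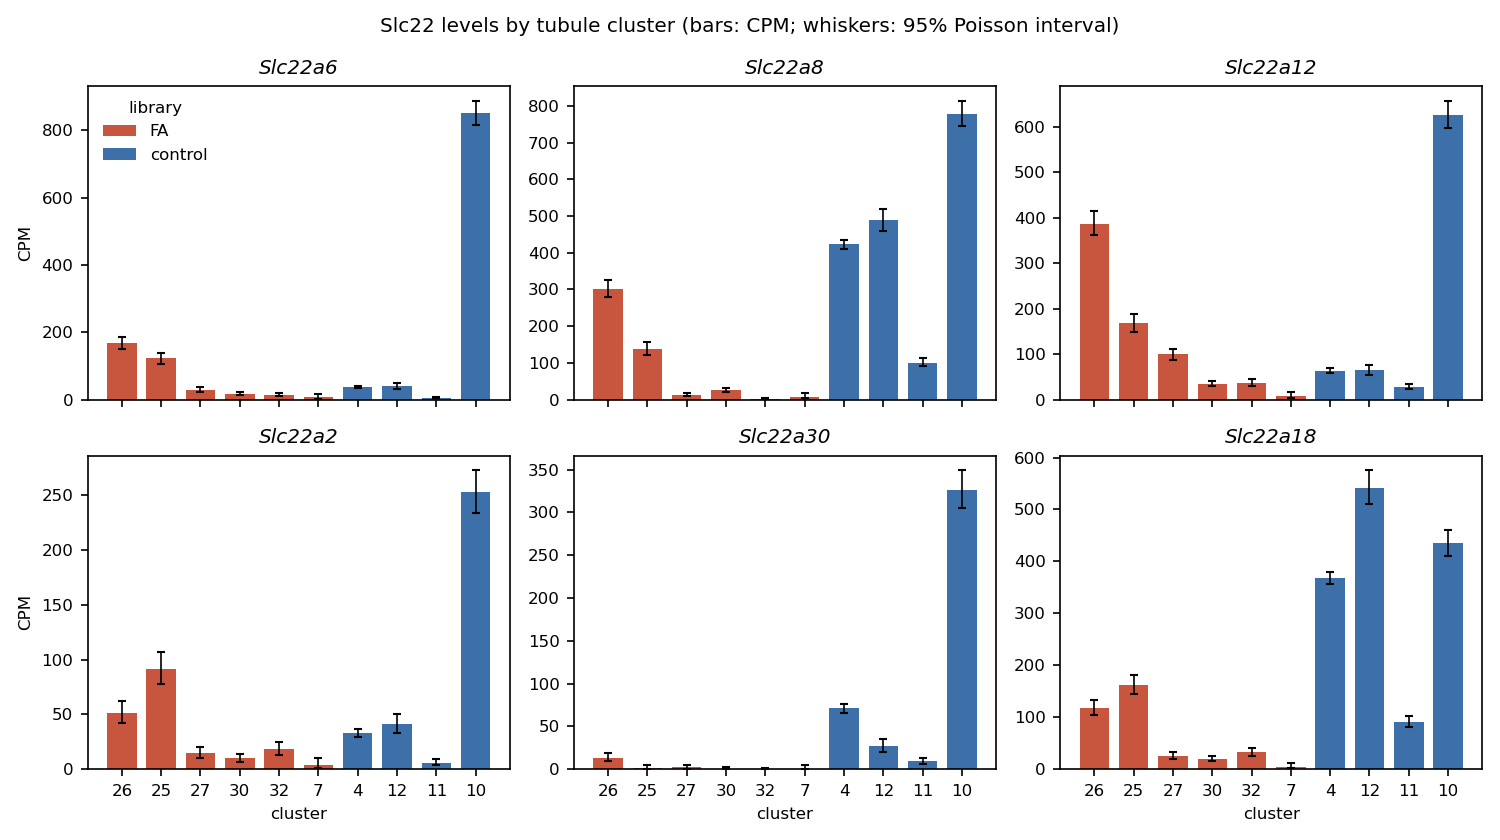
CPM of 6 members in tubule clusters with at least 50 cells in the library, FA clusters left in red and control clusters right in blue, with 95% Poisson intervals. The unnamed control cluster 20 (70 cells, nearest to injured tubule) is not drawn. It held Slc22a8 at 5.28 CPM, Slc22a12 at 0 CPM and Slc22a18 at 24.6 CPM. Cluster 10, the S3-marked control cluster, carries the highest bar for 5 of the genes, and cluster 12 for Slc22a18; among the FA clusters the bars of clusters 26 and 25 stand above the others, except for Slc22a30, where cluster 27 (1.9 CPM) is above cluster 25 (1.66 CPM).

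Every pair among these 6 members was found in the same control cell more often than independent detection would give. In 2106 control proximal tubule-like cells thinned to 1000 UMIs each, 79 cells held both Slc22a6 and Slc22a12, where independent detection would give 22.3. Slc22a2 and Slc22a6 occurred together in 53 cells, against 10.7 under independence, and Slc22a6 and Slc22a30 in 51, against 16.4. Other pairs stood nearer to independence, among them Slc22a12 and Slc22a30, at 34 cells against 18, Slc22a6 and Slc22a8, at 111 against 62.3, and Slc22a8 and Slc22a18, at 209 against 163. The pairs within and across the 2 sets of genes named above were therefore not cleanly separated. These cells come from 1 library and from several clusters, so the counts describe that library.

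Over whole libraries all 6 measured members were lower in FA. A member was counted as measured with at least 20 UMIs over both sides and UMIs in both libraries, and as lower or higher past 1.5-fold. Among all 18073 genes measured this way 31% were lower and 21.1% higher. Slc22a30 had 47 UMIs in FA against 1700 in control, or 0.812 against 41.6 CPM, a ratio of 0.0195 (0.0143 to 0.0261). Slc22a18 stood at 14.7 CPM in FA and 160 CPM in control, a ratio of 0.0919, and Slc22a8 at 19 CPM in FA and 193 CPM in control, a ratio of 0.0983. Slc22a6 had a ratio of 0.219, Slc22a2 of 0.28 and Slc22a12, the least lowered, of 0.49 (0.461 to 0.521). Slc22a12 no longer passed 1.5-fold with no cell filter (log2 ratio -0.27) or with each cell weighed the same (-0.15), against -1.03 as first given. Proximal tubule-like cells made up 538 of the 13502 FA cells and 2222 of the 5807 control cells, and in a sum over the library fewer such cells and less RNA per cell cannot be told apart.

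Within proximal tubule-like cells the picture split by gene. Slc22a12 was higher in FA, with 837 UMIs or 386 CPM against 2530 UMIs or 140 CPM in control, a ratio of 2.76 (2.55 to 2.99). After thinning to 1000 UMIs it was seen in 32.9% (28.9 to 37.1%) of 523 FA cells and in 10.8% (9.49 to 12.2%) of 2106 control cells, and unthinned in 62.8% of FA and 36.4% of control cells. Slc22a30 was lower, at 13.4 CPM in FA against 92.6 CPM in control, a ratio of 0.144 (0.0964 to 0.208). Slc22a18 was lower too, at 118 CPM in FA against 348 CPM in control, a ratio of 0.339 (0.298 to 0.384).

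The other 3 measured members did not pass 1.5-fold. Slc22a6 was at 166 CPM (150 to 184) in FA and 151 CPM (146 to 157) in control, intervals that overlap, with a ratio of 1.1 (0.982 to 1.23). Slc22a2 was at 51.1 CPM in FA and 61.2 CPM in control, with a ratio of 0.836 (0.681 to 1.02). Slc22a8 was at 302 CPM (279 to 326) in FA and 426 CPM (416 to 435) in control, a ratio of 0.709 whose interval (0.653 to 0.767) lies below 1. It passed on the low side when the clustering was finer (Leiden resolution 2), with a ratio of 0.653, and with the nearest unnamed clusters added, with a ratio of 0.535. In this class 1 of 6 measured members was thus higher and 2 lower, where 27% of 12635 measured genes were higher and 22.4% lower. Those shares are near the background. The FA cells were shallower, with a median of 3435.5 UMIs against 6476.5 in control, and their median mitochondrial share was 13.9%, against 17.1% in control. The proximal tubule markers summed to 11758 CPM in FA and 24133 CPM in control, with 0 of the 10 at 0 in either library, and the injury markers to 158 CPM in FA and 85.2 CPM in control.

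**Figure D3:**
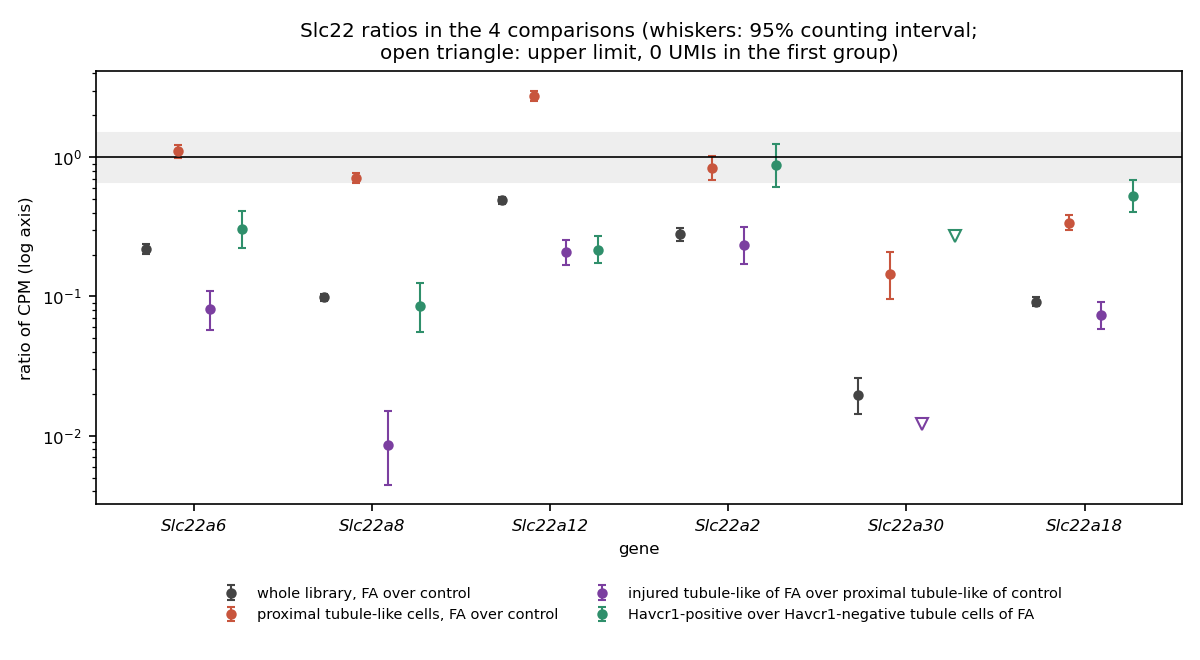
Ratio of CPM on a log axis for 6 members in the 4 comparisons, with 95% counting intervals; the grey band runs from 0.667 to 1.5, and an open triangle is the upper limit where the first group had 0 UMIs. Slc22a12 in proximal tubule-like cells, at 2.76, is the one point above the band, and Slc22a8 in injured tubule-like cells lies at 0.0086.

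These ratios depended on which control cells they were set against. The FA proximal tubule-like cells were almost all in cluster 26 (528 of 538), which held no control cell, whereas the control cells were in clusters 4, 10, 11 and 12. Cluster 26 had 4497 CPM of S1, 5740 CPM of S2 and 1177 CPM of S3 markers, and was led by Cyp4a14, Cyp4a31 and Cyp4a10, fatty acid hydroxylases. Set against the S3-marked control cluster 10, all 6 measured members were lower in FA, where 21.5% of measured genes were. Slc22a6 then had 166 CPM in FA against 852 CPM in control, a ratio of 0.195 (0.174 to 0.218), Slc22a2 a ratio of 0.202 and Slc22a12 a ratio of 0.616 (0.566 to 0.67). Set against the S1-marked control clusters, 3 were higher and 2 lower, with backgrounds of 26.7% and 22.4%. Slc22a12 then had 386 CPM in FA against 56.1 CPM in control, a ratio of 6.87 (6.24 to 7.57), Slc22a6 a ratio of 5.35 (4.66 to 6.15) and Slc22a2 a ratio of 1.81 (1.45 to 2.23). Slc22a18 and Slc22a30 were lower in both settings, at 0.354 and 0.255 against the S1-marked clusters and 0.271 and 0.0409 against the S3-marked cluster. For Slc22a8 the ratios were 0.826 and 0.387. Both choices of control cells were made after the values were seen.

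**Figure D4:**
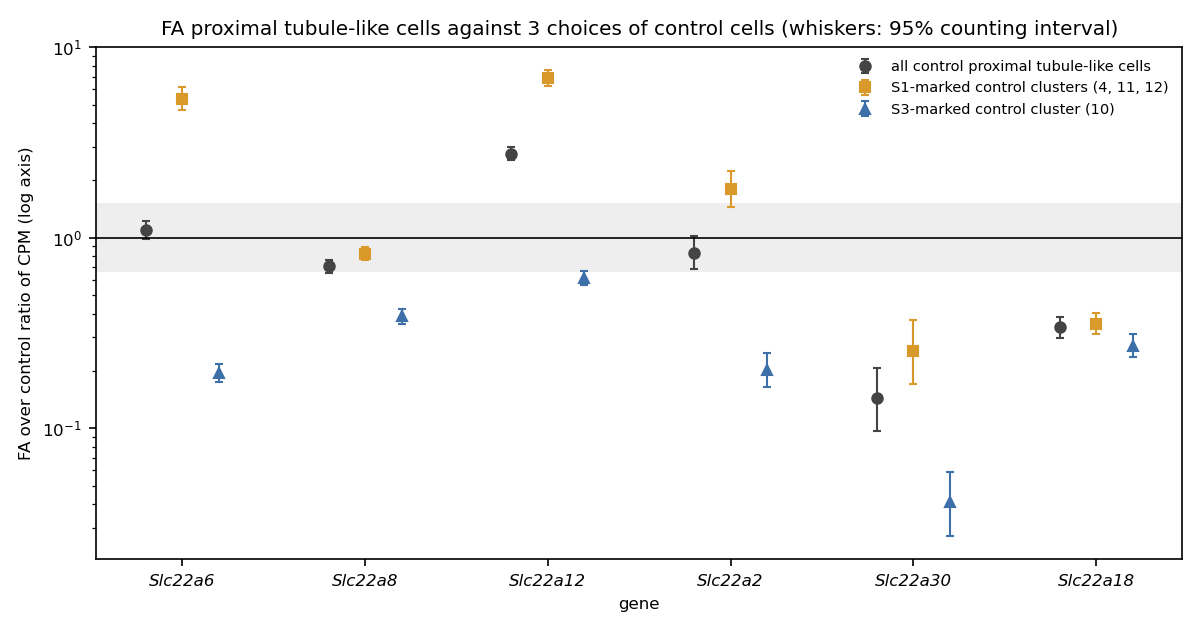
FA over control ratio of CPM (log axis) of the proximal tubule-like FA cells against all control proximal tubule-like cells, against the S1-marked control clusters and against the S3-marked one, with 95% counting intervals. Slc22a6, Slc22a12 and Slc22a2 stand above 1 against the S1-marked clusters and below 1 against the S3-marked one, while Slc22a18 and Slc22a30 stay below 1 in all 3.

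A split of single cells gave a partly different view. Of the proximal tubule-like cells, 445 in FA and 1907 in control had more S1 than S3 marker UMIs, and 72 in FA and 295 in control had more S3. In the S3-side cells Slc22a12 was at 1011 CPM in FA and 644 CPM in control, a ratio of 1.57 (1.36 to 1.8), and Slc22a6 at 713 CPM in FA and 867 CPM in control, a ratio of 0.822 (0.698 to 0.962). In the S1-side cells the ratios were 5.22 (4.69 to 5.8) for Slc22a12 and 2.53 (2.11 to 3) for Slc22a6. Slc22a18 fell to 51.2 CPM in S3-side cells of FA, against 439 CPM in those of control, and Slc22a30 fell to 29.9 CPM in FA, against 344 CPM in control. Those 2 FA values rest on 12 UMIs of Slc22a18 and 7 of Slc22a30. Near the boundary, 28 FA cells differed by 1 UMI and 21 were tied, which is not few beside the 72 on the S3 side. In control 36 differed by 1 UMI and 20 were tied, of 2222 cells. The S3 marker Slc7a13 was left out because it had 0 UMIs in FA. With likely doublets kept, the FA class grew to 1683 cells, Slc22a12 had a ratio of 1.18 (1.11 to 1.25), and Slc22a6 (0.657) and Slc22a8 (0.218) were past the threshold on the low side.

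In injured tubule-like cells of FA all 6 measured members were lower than in control proximal tubule-like cells, where 20.6% of 13167 measured genes were lower. These 621 FA cells were clusters 32 (332 cells, led by Vcam1, Krt20 and C3) and 7 (289 cells, led by Lcn2), and control had 24 such cells, too few to compare. Cluster 7 had principal cells as its second class and Slc14a2, a urea transporter, second among its leading genes. Its proximal tubule markers summed to 474 CPM in FA, against 2225 CPM in cluster 32 of FA and 22380 to 28767 CPM in the control proximal tubule-like clusters. Slc22a8 had 12 UMIs or 3.66 CPM in injured cells of FA against 426 CPM in proximal tubule-like cells of control, a ratio of 0.0086 (0.00444 to 0.015). That level is within the range of the blood cell classes of FA. Slc22a30 had 0 UMIs in injured cells, against 1678 in control proximal tubule-like cells, and the upper limit of the ratio was 0.0122. Slc22a18 had a ratio of 0.0736 and Slc22a6 of 0.0807. Slc22a12 stood at 29 CPM in injured cells of FA against 140 CPM in control, a ratio of 0.208 (0.167 to 0.255), and Slc22a2 at 14.3 CPM in injured cells of FA against 61.2 CPM in control, a ratio of 0.234. The members were thus lower by unequal amounts, with the interval of Slc22a8 apart from those of the other members that had UMIs.

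Besides the injured and the proximal tubule-like cells, FA had 3 unnamed clusters whose nearest class was one of these. Cluster 25 (1041 FA cells and 2 control cells), led by Spp1 and the fibrinogen chains Fgg, Fga and Fgb, had proximal tubule as its nearest class. It held Slc22a2 at 91.4 CPM (78 to 106), above cluster 26 at 51.4 CPM (42.3 to 61.8), and Slc22a18 at 162 CPM (144 to 181), above cluster 26 at 118 CPM (104 to 133). Slc22a12 was lower there than in cluster 26, at 167 CPM (149 to 187) against 387 CPM (361 to 414), and so was Slc22a8, at 138 CPM (122 to 157) against 302 CPM (279 to 326). Slc22a30 had 3 UMIs in cluster 25. Cluster 25 cells were shallow, with a median of 1398 UMIs, and had a median mitochondrial share of 32.6%, against 13.7% in cluster 26.

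Clusters 27 (1275 FA cells, led by Ttn and Lars2) and 30 (1049 FA cells, led by haemoglobin genes, Fabp1 and Acot1) were nearest to injured tubule. In cluster 27 Slc22a12 was at 99.3 CPM (87.6 to 112), while Slc22a6 was at 29.3 CPM and Slc22a8 at 12.9 CPM. In cluster 30 Slc22a12 was at 34.5 CPM, Slc22a8 at 25.9 CPM and Slc22a2 at 9.71 CPM. Cluster 32, the Vcam1 and Krt20 cluster, held Slc22a12 at 36.3 CPM and Slc22a18 at 33 CPM (26.2 to 41.1), but Slc22a8 at 2.06 CPM (0.67 to 4.81). Cluster 7 had 3 to 7 UMIs of each measured member other than Slc22a30, which had 0. When all proximal, injured and nearest unnamed clusters were pooled, chosen after the values were seen, 4524 FA cells stood against 2329 control cells. Then 5 members were lower, where 18.7% of measured genes were, and Slc22a12 was at 119 CPM in FA against 130 CPM in control, a ratio of 0.916 (0.86 to 0.975).

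The proximal tubule-like and injured tubule-like FA cells were also split by Havcr1 (Kim-1), a membrane protein that injured tubule cells make. Of these, 244 cells had a Havcr1 UMI and 915 had none, and 5 of the 6 measured members were lower in the Havcr1-positive cells, where 17% of 11364 measured genes were. Slc22a8 was at 14.9 CPM in positive cells against 176 CPM in negative cells, a ratio of 0.0847 (0.0554 to 0.124). Slc22a12 was at 50.2 CPM in positive cells against 231 CPM in negative cells, Slc22a6 at 29.3 against 95.7 CPM and Slc22a18 at 39.2 against 74 CPM. Slc22a30 had 0 UMIs in positive cells against 29 in negative cells. Slc22a2 stood at 26.5 CPM in positive cells against 30.3 CPM in negative cells, a ratio of 0.876 (0.61 to 1.24), and did not pass. Of the positive cells, 205 belonged to cluster 32, so this split was largely one between clusters.

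The split was also made inside single clusters. Clusters 25, 27 and 30 were unnamed, so their cells were not in the split above. Of the 4 clusters with enough cells on both sides, only cluster 32 was part of it. In cluster 25, Slc22a2 was higher in the 191 Havcr1-positive cells, at 155 CPM against 73.7 CPM in the 850 negative cells, a ratio of 2.11 (1.51 to 2.92). In cluster 32 it had 40 UMIs or 24.3 CPM in positive cells against 4 UMIs or 5.13 CPM in negative cells, a ratio of 4.74 (1.71 to 18.3). Slc22a8 was lower in positive cells of cluster 25, at 73.8 CPM against 157 CPM in negative cells, a ratio of 0.471 (0.309 to 0.696), and of cluster 30, with a ratio of 0.178 (0.0565 to 0.431), but its intervals spanned 1 in clusters 27 (0.942, 0.319 to 2.32) and 32 (1.9, 0.188 to 93.5). Slc22a6 was at 155 CPM in positive cells of cluster 25 against 113 CPM in negative cells, a ratio of 1.37 (1 to 1.85), and its intervals in the other three clusters spanned 1. Slc22a12 was lower in positive cells of clusters 27 and 30, with ratios of 0.636 (0.428 to 0.92) and 0.53 (0.303 to 0.878), and the intervals of clusters 25 and 32 reached past 1. For Slc22a18 every within-cluster interval spanned 1. Positive cells were deeper than negative ones in all 4 clusters, with medians of 1607 against 1361.5 UMIs in cluster 25 and 6899 against 4354 UMIs in cluster 32.

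**Figure D5:**
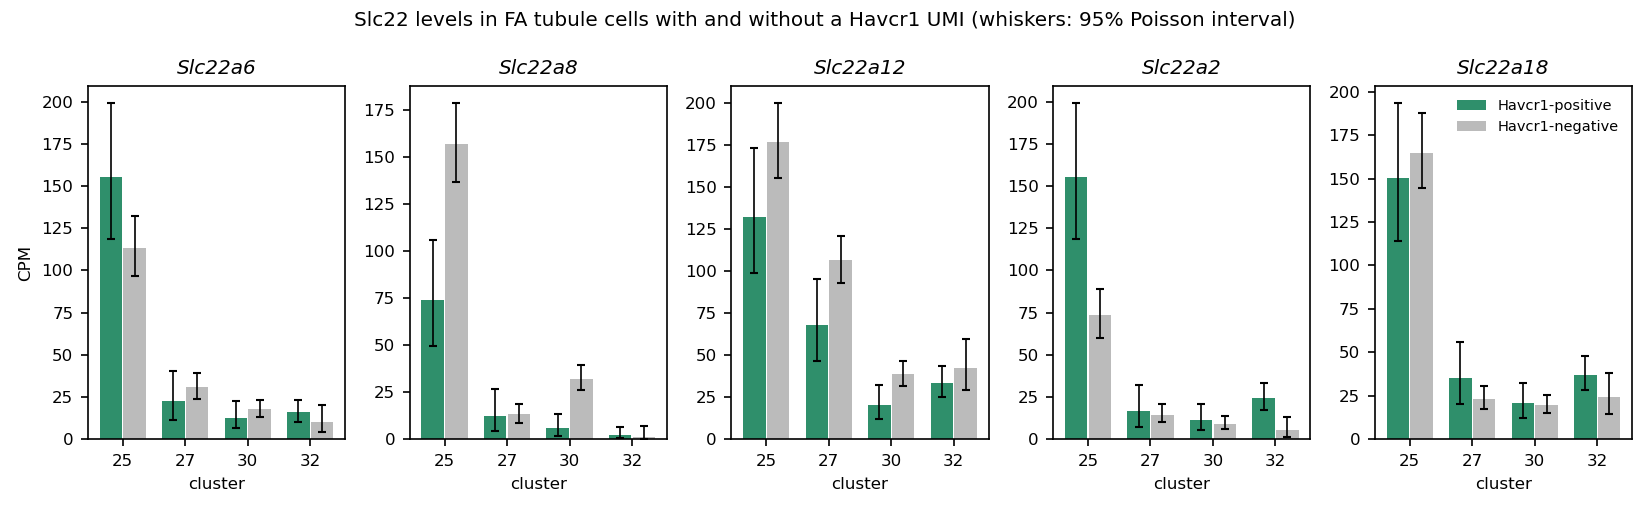
CPM of 5 members in FA cells with (green) and without (grey) a Havcr1 UMI, in the 4 FA clusters with at least 50 cells on both sides, with 95% Poisson intervals. Slc22a2 is higher with Havcr1 in cluster 25, at 155 against 73.7 CPM, whereas Slc22a8 is lower there, at 73.8 against 157 CPM.

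Slc22a7, Slc22a13 and Slc22a19 were too sparse to count as measured. Slc22a7 (OAT2) had 0 UMIs in FA against 13 in control among kept cells, and Slc22a13 (OAT10), a carrier of urate and nicotinate, had 0 in FA against 15 in control. Slc22a19 (OAT5) had 5 UMIs in each library. In proximal tubule-like cells the upper limits of the ratio were 2.74 for Slc22a7 and 2.52 for Slc22a13, and over the whole libraries they were 0.232 and 0.197. In proximal tubule-like cells of FA the upper limit was 1.7 CPM for both genes, below the intervals in the S3-marked control cluster 10, which ran from 2.34 to 7.9 CPM for Slc22a7 and from 2.61 to 8.37 CPM for Slc22a13. A gene at 0 in a library may also be absent from its annotation, since the libraries carry different gene name versions. Slc22a13 overlaps Slc22a14 in the annotation, and Slc22a19 overlaps Gm15967 and Gm15968.

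Slc22a30 shares much of its coding sequence with neighbours, so its counts are uncertain. Over 1656 aligned bases it was 98.8% identical to Slc22a28, and 92.4% and 91.8% identical to Slc22a29 and Slc22a27. Slc22a28 was lower too, at 7.83 CPM in FA against 72.4 CPM in control in proximal tubule-like cells, a ratio of 0.108 (0.0628 to 0.174). Slc22a29 stood at 25.3 CPM in FA and 21.5 CPM in control, a ratio of 1.18 (0.871 to 1.57). By comparison Slc22a6 and Slc22a8 were 62.5% identical.

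The rest of the family and its partners were read in proximal tubule-like cells beside the background of 27% higher and 22.4% lower. Of the other Slc22 genes, 9 were measured, 3 higher and 2 lower, with a median log2 ratio of 0.24 against 0.06 over all genes. Slc22a5, the carnitine transporter, stood at 86.1 CPM in FA against 33.5 CPM in control, and Slc22a17, a lipocalin receptor, at 27.6 CPM in FA against 13.5 CPM in control. Slc22a22 stood at 1.84 CPM in FA against 22.5 CPM in control.

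Efflux pumps and other organic anion carriers counted 6 higher and 3 lower of 10 measured. Abcc2, a luminal pump of conjugated anions, was at 590 CPM in FA against 221 CPM in control, a ratio of 2.67 (2.51 to 2.85), and Abcb1a, a drug efflux pump, at 6.45 CPM in FA against 2.81 CPM in control. Slco1a6 and Slco3a1 were lower, with ratios of 0.428 and 0.573. Of the 10 genes that set the ion and dicarboxylate gradients, 5 were higher and 1 lower. Slc13a1, a sulfate cotransporter, was at 2663 CPM in FA against 323 CPM in control, a ratio of 8.26 (7.96 to 8.56), and Slc13a2, a dicarboxylate cotransporter, at 58 CPM in FA against 20.4 CPM in control. Fxyd2, a subunit of the sodium pump, was at 2963 CPM in FA against 6968 CPM in control, and Slc5a8 had a ratio of 0.867.

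Of the 8 urate genes, 3 were higher and 1 lower. Xdh, which makes urate, was at 35.9 CPM in FA against 14.9 CPM in control, and Slc2a9, a urate carrier, at 8.29 CPM in FA against 4.03 CPM in control. Pdzk1, a scaffold that binds Slc22a12, was lower, at 291 CPM in FA against 671 CPM in control, a ratio of 0.433 (0.399 to 0.47), and Slc16a9 had a ratio of 0.769. Among 8 regulators 3 were higher and 2 lower. Hnf4a, a nuclear receptor of the renal epithelium, was at 156 CPM in FA against 331 CPM in control, a ratio of 0.471 (0.421 to 0.526). Nr1i2 and Hnf4g had ratios of 2.42 and 1.96 on 31 and 43 FA UMIs.

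The conjugation enzymes went mostly down, with 1 higher and 6 lower of 10 and a median log2 ratio of -1.07. Ugt1a2 had 63 UMIs in FA against 4 in control, and Ugt3a1 was at 8.75 CPM in FA against 43.2 CPM in control. Acsm3 had 0 UMIs in FA against 389 in control, and Sult1d1 had a ratio of 0.865. Genes known to be higher in male mouse kidney were all lower in FA, 4 of 4 measured, with Kap at 0.921 CPM in FA against 5559 CPM in control and Cyp2j13, Cyp2e1 and Cyp4b1 at ratios of 0.102, 0.139 and 0.212. Of 3 measured genes known to be higher in females, Cyp4a14 was at 424 CPM in FA against 14.6 CPM in control and Prlr at 29.5 CPM in FA against 16.9 CPM in control. Slc7a12 had 0 UMIs in FA against 67 in control. In control, Kap was concentrated in the S3-marked cluster 10, at 37453 CPM against 120, 29.4 and 11.3 CPM in clusters 4, 11 and 12. Cyp2e1, at 1226 CPM, and Slc7a12, at 24.5 CPM, were also highest in cluster 10 among the control clusters. The FA cells were almost all in cluster 26, so segment, sex and treatment cannot be told apart in these ratios.

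For the 4 members that reached 100 CPM in a class, the genes with the most similar levels were sought over 46 cluster-by-library points and 9512 genes. Slc17a3, a phosphate and urate carrier, was closest to Slc22a12 (Pearson r 0.92 on log2(CPM + 1)), followed by Timd2 (0.9) and Cyp4a10 (0.88). Cyp4a10, Ugt2b38 and Slc17a1 were closest to Slc22a6, at 0.88, 0.87 and 0.87. Ces1f, Cyp2d26 and Slc6a20b were closest to Slc22a8, at 0.87, 0.87 and 0.85, and Lpar3, Prodh and Acsm1 to Slc22a18, at 0.86, 0.85 and 0.84. The points share 2 libraries and differ in depth, so these values are a description across clusters.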

How the data were processed

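Droplet single-cell libraries, 1 FA and 1 control, were analysed from the deposited matrix of raw UMI counts, checked to be whole numbers. Seurat and mm10 are named in the submitters' processing notes; aligner, counting tool and use of strand: not given in the sources used here. Of 18997 FA and 9681 control barcodes, cells were kept above minimums of 200 genes and 500 UMIs, with a mitochondrial share of up to 50%, less likely doublets scored against simulated pairs (2420 in FA and 488 in control). Older and newer names of a gene were summed. Clustering used scanpy 1.11.5 and scikit-learn 1.9.0 (2000 variable genes, 30 components, 15 neighbours, Leiden resolution 1). It gave 34 clusters, of which 6 stayed unnamed; a name needed at least 3 markers detected in 5% of cells.

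Counts were summed per class as CPM with exact Poisson intervals, and ratios have exact conditional binomial intervals. The ratio intervals were run on simulated Poisson sums, the model they assume, which cannot show how variation between cells or libraries affects them. Shares of cells were thinned to 1000 UMIs. All 9 members were named, plus, from each list, the 2 highest and 2 lowest ratios with at least 50 UMIs in the higher library, and the 3 most similar genes per member with 100 CPM or more. Coding identity came from aligned longest open reading frames of GENCODE vM21 transcripts. Members, lists, markers and rules were chosen with earlier results of these data known. Settings of filters, doublets, clustering and scaling were varied. A gene that the naming rule selects and 1 promoter motif are not reported here.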

Additional observations from a re-analysis of the deposited data

How the results depend on the processing

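No paired analysis was possible because each group has 1 library, so no replicate could be left out either. Whole-library counts stayed within 1.5 times under every alternative run, although the call of Slc22a12 was lost with no cell filter and with each cell weighed the same, which gave 5 lower. For proximal tubule-like cells, where 2 members were lower and 1 higher, keeping likely doublets gave 4 lower and 0 higher, and no cell filter gave 6 lower and 0 higher. Without the filter the cells were clustered anew, and the class held 334 FA cells with 20 Slc22a12 UMIs and 4999 control cells. The main class had 538 FA cells with 837 Slc22a12 UMIs and 2222 control cells, so the FA cells were not the same. The filter and the change of cells in the class cannot be told apart. With no minimum of UMIs, 2 were higher, the added one being Slc22a19. It had 1 UMI in FA against 4 in control, a ratio of 2.09 whose interval (0.0424 to 21.1) spans 1. Control cells from the S3-marked cluster gave 6 lower and 0 higher, those from S1-marked clusters 3 higher, and cells with more S1 than S3 marker UMIs 2 higher. Pooling all proximal and injured clusters gave 5 lower and 0 higher. No value could be had with at most 20% mitochondrial UMIs or at Leiden resolution 0.5, which left 1 and 6 FA cells in the class. For injured cells, 6 members were lower, and no cell filter gave 3. For the Havcr1 split, 5 lower and 0 higher became 0 lower and 1 higher with at most 20% mitochondrial UMIs, and 3 lower and 1 higher with no cell filter.

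Among ratios past 1.5-fold the sign turned in 6 cases. In proximal tubule-like cells the log2 ratio of Slc22a12 was -1.24 with no cell filter (20 FA UMIs), -0.70 against the S3-marked cluster and -0.13 with the clusters pooled. In injured cells it was 0.44 with no cell filter and 0.24 at Leiden resolution 0.5. In the Havcr1 split that of Slc22a18 was 2.61 with at most 20% mitochondrial UMIs. Ratios that had not passed changed sign too, the largest shifts being these. In proximal tubule-like cells that of Slc22a6, 0.14, was -2.36 against the S3-marked cluster, -1.34 pooled, -1.32 with no cell filter and -0.61 with doublets kept, and that of Slc22a2, -0.26, was 0.85 against the S1-marked clusters. In the Havcr1 split that of Slc22a2 was 0.69 with no cell filter. The cause was not tested. Of the other log2 ratios, 151 stayed inside their counting interval and 121 moved outside it with the same sign or uncalled. Scaling by the median of ratios moved all genes by -0.11 (whole library), 0.06 (proximal tubule-like), 0.30 (injured) and -0.01 (Havcr1) on the log2 scale, and no member changed its call under it. Depth limits Slc22a7, Slc22a13 and Slc22a19, and the segment and sex makeup of the libraries was not matched by design.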
